A study of Homo sapiens with 12 samples.

Results

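The genes described here encode 10 cytoplasmic RNA-binding or granule-associated proteins: the fragile X relatives FXR1, FXR2 and FMR1, the stress granule proteins G3BP1 and G3BP2 with their partners CAPRIN1, UBAP2L and USP10, and ataxin-2 (ATXN2) with its relative ATXN2L. They were chosen by name, as 10 of the 59385 gene names counted. After low counts were filtered, 18166 genes were tested, and all 10 were among them. The RNA came from HEK293T, a line of human embryonic kidney cells, of which 1 clonal line carried a doxycycline (Dox)-inducible control shRNA with no human target (shCtrl) and 1 clonal line carried a Dox-inducible shRNA against PRRC2B (shPRRC2B). Both were induced for 36 h, and both had been selected with puromycin. Total RNA and RNA of the pooled heavy sucrose-gradient fractions (polysome RNA) were sequenced from each line after poly(A) enrichment, with 3 biological replicates in each of the 4 groups. In such bulk RNA, a change in every cell and a change in some of the cells cannot be told apart. Each shRNA was present in a single clone, so the knockdown and the clone cannot be told apart, and p-values measure only the spread between these samples.

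FMRP, the product of FMR1, binds mRNAs and ribosomes, and its loss causes fragile X syndrome; FXR1 and FXR2 share its RNA-binding domains. Stress granules are assemblies of mRNAs and proteins that form when initiation of translation stalls. G3BP1 and G3BP2 are their central scaffolds, CAPRIN1 and UBAP2L bind G3BP and favour assembly, and USP10 binds the same pocket of G3BP as CAPRIN1 and limits assembly. Ataxin-2, in which an expanded glutamine tract causes a spinocerebellar ataxia, binds poly(A)-binding protein and the helicase DDX6, and ATXN2L shares these partners. The libraries measured the mRNAs of these genes, not granules or proteins.

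The libraries held between 9855734 and 20837542 counted read pairs. The mean correlation of a library with those of its own group lay between 0.975 (shCtrl polysome replicate 1) and 0.996. PRRC2B total RNA was 281 ± 28.7 CPM (counts scaled to library size by the TMM method; mean ± SD, n = 3) in shCtrl and 100.3 ± 2.32 in shPRRC2B cells, a log2 change of -1.49 (SE 0.17, adjusted p = 4.25e-06, edgeR's quasi-likelihood test). Of 6 markers expected in HEK293T cells, VIM, KRT18, KRT8 and PAX2 were counted in every library at 2.55 CPM or more, NES ranged from 0.555 to 23.1 CPM, and LHX1 stayed at or under 0.327 CPM. Of 6 markers of other cell types, 5 did not exceed 0.434 CPM and UMOD was at 0, while the fibroblast collagen COL1A1 ranged from 2.93 to 34.0 CPM. In total RNA of shPRRC2B cells, COL1A1 (log2 change 0.89), NES (1.47) and VIM (0.96) were called higher and KRT8 (-2.13) lower by the same test, while KRT18 (0.41) and PAX2 (0.25) were not called. The part of these differences between the lines in the results below was not tested.

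Translation efficiency (TE), the ratio of polysome to total RNA, fell in shPRRC2B cells for 7 of the 10 mRNAs: CAPRIN1, G3BP2, ATXN2, G3BP1, ATXN2L, FXR1 and UBAP2L. The falls ran from 2.87-fold for CAPRIN1 to 1.71-fold for UBAP2L. FXR2, FMR1 and USP10 did not pass the test. A call required both an adjusted p below 0.05 and a log2 change beyond 0.5 in size. By this rule 16.4% of all genes tested fell in TE. The rise, which 10.7% of all genes showed, was called for 0 of the 10 by edgeR, by DESeq2 and at an unadjusted p under 0.05. The median log2 TE change was -0.86 over the 10 and -0.03 over all genes.

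A fall in TE can come from a lower level in polysome RNA, a higher level in total RNA, or both. The fractions were therefore also compared separately. CPM give levels relative to the other RNAs of a library, not amounts per cell. Polysome RNA fell for the same 7 mRNAs, against 21.4% of all genes, and their 3 shPRRC2B values lay below the 3 shCtrl values for all 7, against 21.5% of all genes. A rise in polysome RNA was called for 0 of the 10 by edgeR and by DESeq2, with 1 (USP10) at an unadjusted p under 0.05, against 18.4% of all genes called. Total RNA rose for 3 of the 10 (G3BP1, G3BP2 and USP10), against 14.9% of all genes. It fell for 0 of the 10 by edgeR, by DESeq2 and at an unadjusted p under 0.05, against 14.1%. The 3 total RNA values of shPRRC2B cells lay above the 3 of shCtrl cells for 7 mRNAs (34.1% of all genes), 4 of which stayed short of the thresholds. The polysome change, the total change and the TE change use the same libraries and are not independent of each other.

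**Figure D1:**
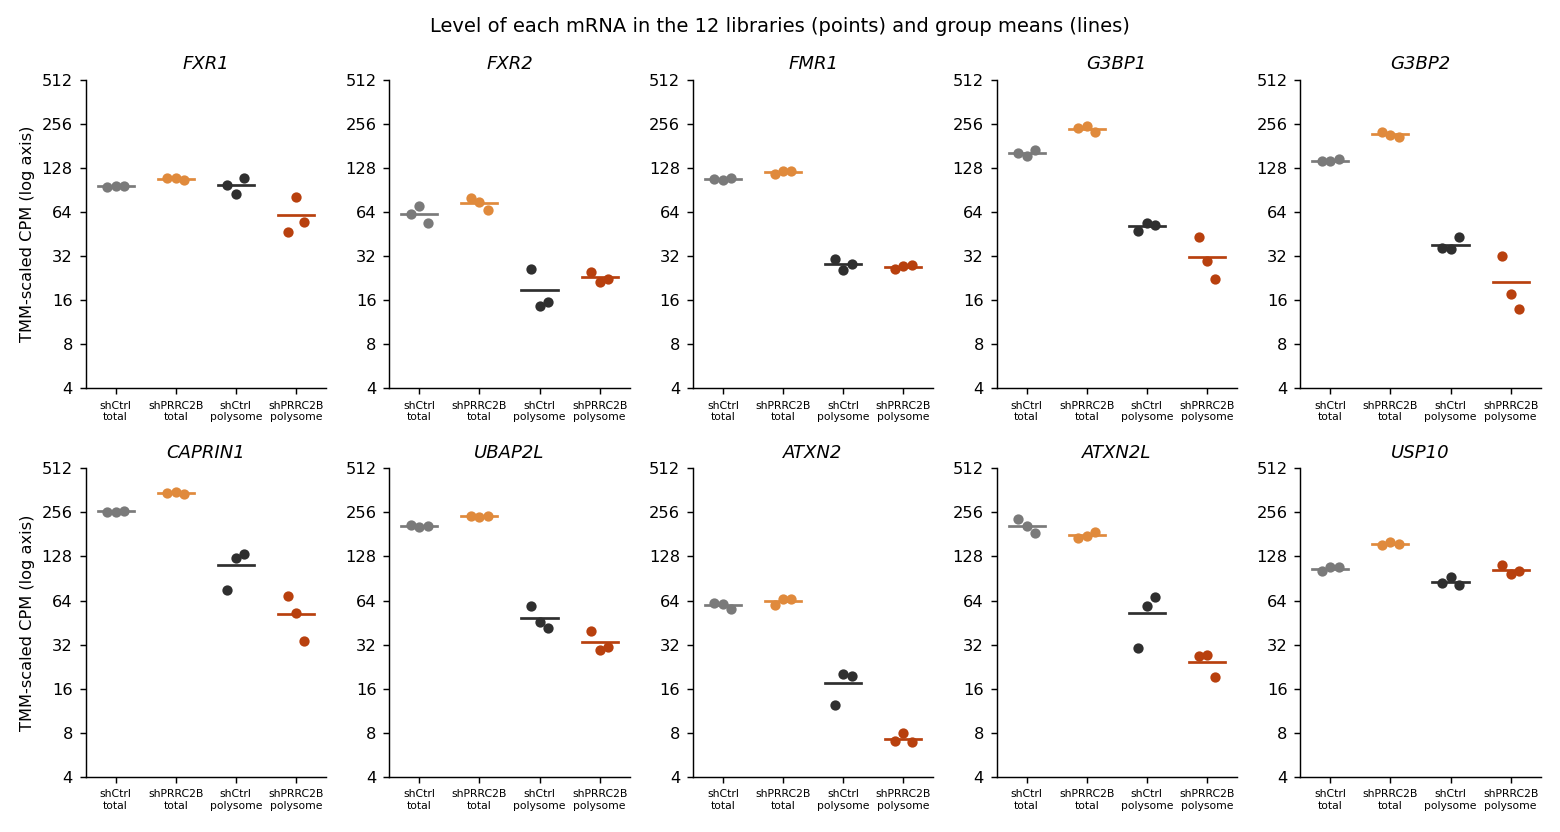
CPM after TMM scaling (log axis) of each mRNA in the 3 libraries (points) of each group, with group means as lines. The shPRRC2B polysome points lie below all shCtrl polysome points for FXR1, G3BP1, G3BP2, CAPRIN1, UBAP2L, ATXN2 and ATXN2L, and overlap or exceed them for FXR2, FMR1 and USP10.

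**Figure D2:**
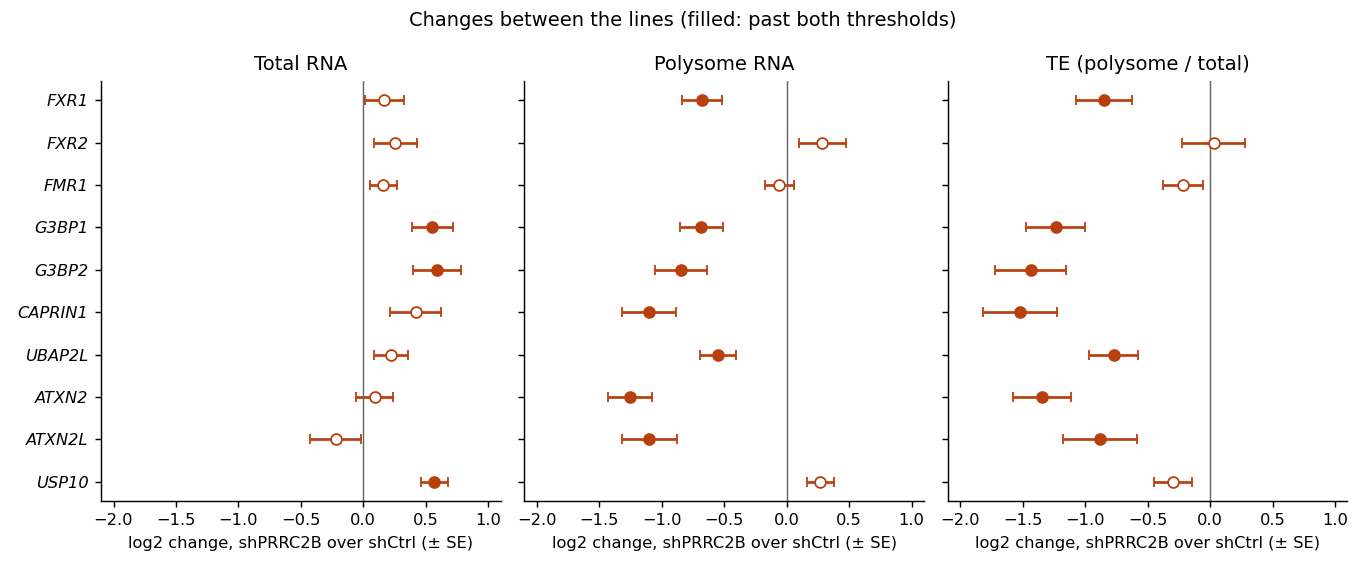
Log2 change of total RNA, polysome RNA and TE in shPRRC2B over shCtrl cells for each mRNA, with the SE of the model as bars; filled points passed both thresholds. TE ranges from -1.52 for CAPRIN1 to 0.03 for FXR2.

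FXR1 (chromosome 3, 180868141 to 180982753, plus strand, GRCh38) was the one member of the fragile X family called lower in polysome RNA. Its polysome RNA stood at 98.0, 85.2 and 108.8 CPM in replicates 1 to 3 of shCtrl cells and at 46.9, 80.9 and 54.5 CPM in shPRRC2B cells. The highest shPRRC2B value lay just under the lowest shCtrl value, and shPRRC2B replicate 2 was well above the other 2. Polysome RNA changed by -0.68 on the log2 scale (SE 0.16, adjusted p = 0.00245, edgeR's quasi-likelihood test, Benjamini-Hochberg adjusted). In total RNA, FXR1 held 95.0 to 96.7 CPM in shCtrl and 104.9 to 108.9 CPM in shPRRC2B cells, a log2 change of 0.17 (SE 0.16) that did not pass the test. The TE change was -0.85 (SE 0.23, adjusted p = 0.0101 by the same edgeR test) and remained past both thresholds whichever library was left out, at values from -1.14 to -0.75.

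FMR1 (chromosome X, 147911919 to 147951125, plus strand) was nearly level on polysomes. It stood at 30.5, 25.5 and 28.3 CPM in shCtrl and at 26.0, 27.2 and 27.9 CPM in shPRRC2B polysome libraries, with overlapping groups. Its total RNA was 107 ± 2.29 CPM (SD, n = 3) in shCtrl and 120.1 ± 3.37 CPM in shPRRC2B cells, and the TE change was -0.22 (SE 0.16, adjusted p = 0.328, edgeR). FXR2 (chromosome 17, 7591230 to 7614897, minus strand) showed a TE change of 0.03 (SE 0.26, adjusted p = 0.966, edgeR). Its polysome RNA was 25.9, 14.4 and 15.5 CPM in shCtrl and 24.8, 21.2 and 22.4 CPM in shPRRC2B cells. The shCtrl values were split, with replicate 1 above every shPRRC2B library and the other 2 below. Without shCtrl polysome replicate 1, the FXR2 polysome change moved from 0.29 to 0.52 and passed both thresholds (adjusted p = 0.0111, edgeR), while its TE change of 0.31 did not.

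G3BP1 and G3BP2 moved in opposite directions in the 2 fractions. G3BP1 (chromosome 5, 151771045 to 151812911, plus strand) held 162, 153 and 169 CPM in shCtrl and 239, 246 and 226 CPM in shPRRC2B total RNA. Its polysome RNA was 47.3, 53.4 and 52.1 CPM in shCtrl and 43.0, 29.5 and 22.4 CPM in shPRRC2B cells. The groups did not overlap in either fraction, and shPRRC2B polysome replicate 1 lay closest to the control values. Total RNA rose by 0.55 (SE 0.16, adjusted p = 0.0137, edgeR), polysome RNA changed by -0.68 (SE 0.17, adjusted p = 0.00371) and TE by -1.24 (SE 0.24, adjusted p = 0.00109). Without shPRRC2B polysome replicate 1 the polysome change was -1.08.

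G3BP2 (chromosome 4, 75641849 to 75724589, minus strand) showed the same picture with somewhat larger values. Total RNA rose from 141, 142 and 147 CPM to 224, 216 and 209 CPM, and polysome RNA went from 36.2, 35.7 and 42.7 CPM to 32.2, 17.6 and 13.8 CPM. Again no values overlapped between lines, and the first shPRRC2B polysome library was the nearest to control. The log2 changes were 0.59 in total RNA (SE 0.19, adjusted p = 0.0246, edgeR), -0.85 in polysome RNA (SE 0.21, adjusted p = 0.00345) and -1.44 in TE (SE 0.29, adjusted p = 0.00142). Without shPRRC2B polysome replicate 1 the polysome change was -1.40. The rise of total RNA was less firm: its adjusted p rose above 0.05 when any of the 6 total libraries was left out, or shCtrl polysome replicate 2 (0.0511 to 0.0812). The call for G3BP1 total RNA was lost without replicate 2 of either line (0.0622 without shCtrl and 0.0535 without shPRRC2B).

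USP10 (chromosome 16, 84699986 to 84779922, plus strand), the deubiquitinase that binds G3BP, shared the rise in total RNA but not the fall on polysomes. Its total RNA was 101.3, 107.6 and 108.6 CPM in shCtrl and 154, 161 and 155 CPM in shPRRC2B cells, with no overlap. The log2 change was 0.57 (SE 0.11, adjusted p = 0.000671, edgeR). Polysome RNA stood at 84.5, 92.1 and 81.4 CPM in shCtrl and 111.9, 97.0 and 102.4 CPM in shPRRC2B cells, each above all controls, but its log2 change of 0.27 (SE 0.11) had an adjusted p of 0.0536 by edgeR. The TE change was -0.30 (SE 0.15, adjusted p = 0.165). With library totals in place of TMM, the total RNA changes of G3BP1, G3BP2 and USP10 were 0.48, 0.52 and 0.49, and none of them was called.

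CAPRIN1 (chromosome 11, 34051731 to 34102610, plus strand) had the lowest TE change of the 10. Its polysome RNA was 75.7, 124.0 and 133.9 CPM in shCtrl and 68.4, 52.8 and 33.9 CPM in shPRRC2B cells. The spread within each line was wide, and shCtrl replicate 1 lay close to the highest shPRRC2B value. Polysome RNA changed by -1.10 (SE 0.21, adjusted p = 0.000473, edgeR) and TE by -1.52 (SE 0.30, adjusted p = 0.00122). Total RNA was 258 to 264 CPM in shCtrl and 341 to 355 CPM in shPRRC2B cells, without overlap, at a log2 change of 0.42 (SE 0.20, adjusted p = 0.123). With each library left out in turn, the TE change lay between -1.84 and -1.32 and was called each time.

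UBAP2L (chromosome 1, 154220179 to 154271510, plus strand) had the smallest called TE change, -0.77 (SE 0.20, adjusted p = 0.00804, edgeR). Polysome RNA was 59.1, 45.6 and 41.7 CPM in shCtrl and 39.5, 29.5 and 30.8 CPM in shPRRC2B cells, a log2 change of -0.55 (SE 0.14, adjusted p = 0.00479). The lowest control and the highest shPRRC2B library were near each other, and without shCtrl polysome replicate 1 the change was -0.47, short of the fold threshold. Its total RNA was tight within each line, at 203 to 209 CPM in shCtrl and 237 to 243 CPM in shPRRC2B cells, and the log2 change of 0.22 did not pass the test.

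ATXN2 (chromosome 12, 111443485 to 111599676, minus strand) had the lowest change in polysome RNA. It stood at 12.4, 20.1 and 19.6 CPM in shCtrl and at 6.96, 7.93 and 6.85 CPM in shPRRC2B polysome libraries. These rest on 132 to 185 and on 72 to 83 read pairs. The 3 shPRRC2B values were close together and below every control, of which replicate 1 was the lowest. The log2 change was -1.25 (SE 0.18, adjusted p = 2.75e-05, edgeR), total RNA was 59.4 ± 3.10 CPM (SD, n = 3) in shCtrl and 63.4 ± 3.60 CPM in shPRRC2B cells, and TE changed by -1.35 (SE 0.23, adjusted p = 0.000507).

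ATXN2L (chromosome 16, 28822999 to 28837237, plus strand) was the least firm of the 7. Its polysome RNA was 30.2, 58.9 and 67.9 CPM in shCtrl and 26.7, 26.9 and 19.3 CPM in shPRRC2B cells. Replicate 1 of shCtrl lay nearer to the shPRRC2B libraries than to the other controls. Polysome RNA changed by -1.10 (SE 0.22, adjusted p = 0.000622, edgeR), and by -1.47 without that library. ATXN2L total RNA was the only one of the 10 below 0 in log2 change, at -0.22 (SE 0.20, adjusted p = 0.430), with overlapping groups. Its TE change of -0.88 (SE 0.30, adjusted p = 0.0363) lost its call without any 1 of 8 libraries: replicates 2 and 3 of both shCtrl fractions, all 3 shPRRC2B total replicates and shPRRC2B polysome replicate 3 (adjusted p from 0.0563 to 0.0878). Without shCtrl polysome replicate 1 it was -1.20 (adjusted p = 0.00011).

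Within each line, most of these mRNAs were depleted from the polysome fraction relative to total RNA. In shCtrl cells 8 of the 10 were lower in polysome than in total RNA, against 39.8% of all genes, with UBAP2L lowest at a log2 ratio of -2.08 (SE 0.14). FXR1 was level between the fractions at 0.02 (SE 0.16), and USP10 was at -0.30 (SE 0.11). In shPRRC2B cells all 10 were lower, against 42.3% of all genes, from -3.35 (SE 0.22) for G3BP2 to -0.60 (SE 0.11) for USP10, and FXR1 was at -0.82 (SE 0.16). These ratios have no absolute zero, because the TMM factors were 1.34 to 1.47 for total and 0.681 to 0.742 for polysome libraries. Scaling by library totals moved the median of all genes by -0.996 in shCtrl and -0.944 in shPRRC2B cells, put FXR1 in shCtrl cells at -0.98, and took the higher genes from 45.0% to 23.1% of the calls in shCtrl and from 46.4% to 29.6% in shPRRC2B cells. TMM within each fraction moved these medians about as far (by -0.939 in shPRRC2B cells), and counting every gene by -0.324 and -0.26. Over all genes with a length, these ratios were lower for longer transcripts (Spearman correlation -0.57 in shCtrl and -0.61 in shPRRC2B cells). With the trend of counts on transcript length removed (described further on), FXR1 was higher in polysome than in total RNA, at 1.61 in shCtrl and 1.38 in shPRRC2B cells. In shCtrl cells 6 of the 10 were then called lower, against 33.1% of all genes, without G3BP1 (0.11) and CAPRIN1 (-0.13). In shPRRC2B cells 7 were called lower, against 38.6% of all genes, without FXR1, G3BP1 (-0.46) and USP10 (-0.28). The order of the 10 within a line as fitted, with FXR1 and USP10 at the top, is shown in the plot of polysome over total RNA. The 2 lines' ratios are the components of the TE change and no separate evidence for it.

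**Figure D3:**
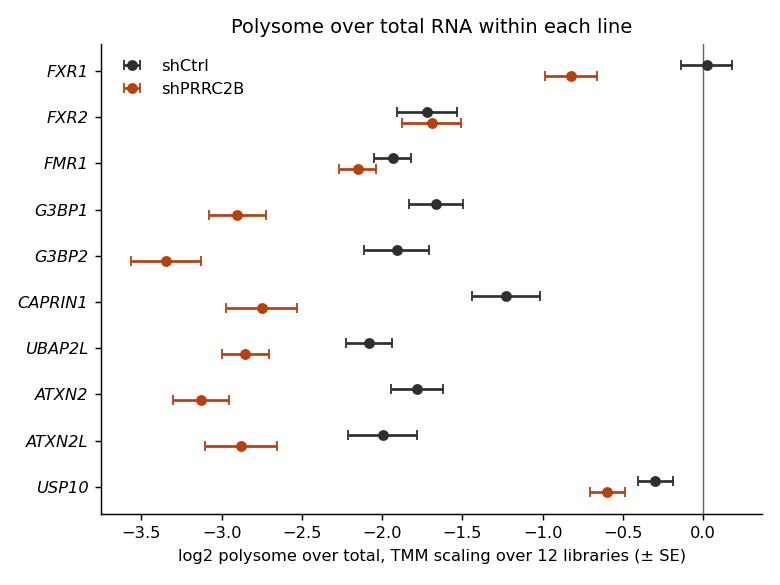
Log2 ratio of polysome to total RNA within shCtrl (black) and shPRRC2B (orange) cells for each mRNA, with the SE of the model as bars. FXR1 and USP10 stand to the right of the other 8 in both lines, and the gap between a gene's points is its TE change.

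Related genes were then set against each other within each library, as the log2 ratio of their counts, which needs no library scaling. FXR1 relative to FMR1 stood at -0.18, -0.12 and -0.20 in shCtrl total and at 1.68, 1.74 and 1.94 in shCtrl polysome libraries, so FXR1 counts, uncorrected for length, exceeded those of FMR1 in polysome libraries only. In shPRRC2B cells the ratio was -0.09, -0.17 and -0.21 in total and 0.85, 1.57 and 0.97 in polysome libraries. The difference in TE change between FXR1 and FMR1 was -0.66 (SE 0.24, exact two-sided permutation p = 0.0450, adjusted over the 5 pairs 0.125). Against FXR2 it was -0.95 (SE 0.41, exact permutation p = 0.150, adjusted 0.188). Thus FXR1 passed the TE test and its relatives did not, but a difference between them was not shown after adjustment.

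For FXR2 against FMR1 the TE difference was 0.29 (SE 0.27, exact permutation p = 0.350, adjusted 0.350). For G3BP1 against G3BP2 it was 0.24 (SE 0.14, exact permutation p = 0.115, adjusted 0.188). ATXN2 against ATXN2L gave -0.49 (SE 0.20, exact permutation p = 0.05, adjusted 0.125). None of the 5 pairs passed 0.05 after adjustment. Missing the threshold does not show that the genes of a pair act alike, and the SEs of 0.14 to 0.41 give the precision of these differences. The smallest p these 400 assignments allow is 0.005, and within 1 fraction the smallest is 0.10. Of the G3BP pair, both fell in TE in the fit across all genes, and their levels over the 12 libraries had a Pearson r of 0.998.

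**Figure D4:**
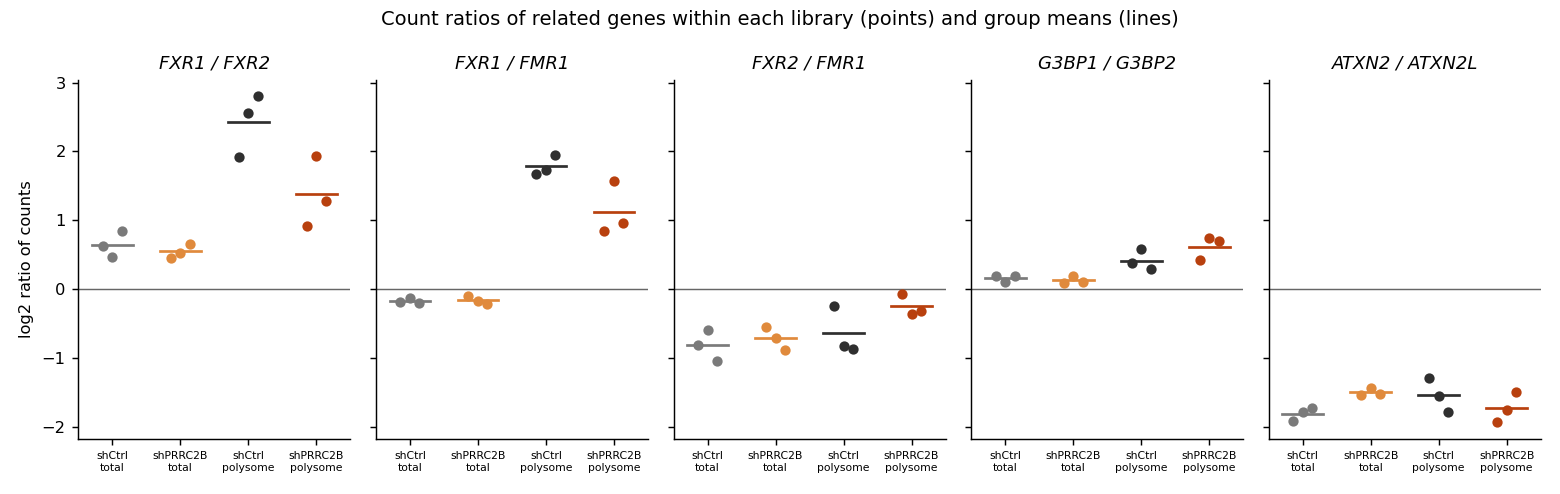
Log2 ratio of the counts of related genes in each library (points) with group means (lines), for 5 pairs. FXR1 over FXR2 and FXR1 over FMR1 are higher in polysome than in total libraries, and their polysome means are 2.43 and 1.79 in shCtrl and 1.38 and 1.13 in shPRRC2B cells.

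Longer transcripts had lower TE changes over all genes. Canonical transcripts ranged from 2987 nt for FXR2 and 3328 nt for USP10 to 8343 nt for FXR1 and 10227 nt for G3BP1, of which 6464 and 8697 nt were 3' untranslated. UBAP2L had 3877, G3BP2 4321, ATXN2 4347, FMR1 4441, ATXN2L 4456 and CAPRIN1 5514 nt. Over the 15638 tested genes with a length, the Spearman correlation of length and TE change was -0.41, given as a description across genes, which share the libraries. The share of genes that fell in TE was 2.61% in the shortest and 39.7% in the longest of 4 equal length groups. Of the 10 transcripts, only that of FXR2 was shorter than the median of all genes, 3052 nt.

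When the trend of counts on length was removed from each library, 4 of the 10 fell in TE, against 13.0% of all genes: G3BP2 (-1.21), CAPRIN1 (-1.15), ATXN2 (-1.10) and UBAP2L (-0.59). FXR1 moved from -0.85 to -0.23 (adjusted p = 0.513, edgeR) and G3BP1 from -1.24 to -0.58 (adjusted p = 0.054). ATXN2L was at -0.62 (adjusted p = 0.136). The polysome falls of FXR1 (-0.22), G3BP1 (-0.18) and UBAP2L (-0.42) also no longer passed both thresholds, nor did the rise of G3BP1 total RNA (0.40). The correction took the canonical length of each gene, and which transcript forms these cells held was not measured. Short forms would change the corrected values. Length cannot be separated from other features that go with it, and its part in these changes was not tested further. With the trend removed, FXR2 was at 0.0018, FMR1 at 0.04 and USP10 at -0.23 in TE, and none of them was called.

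**Figure D5:**
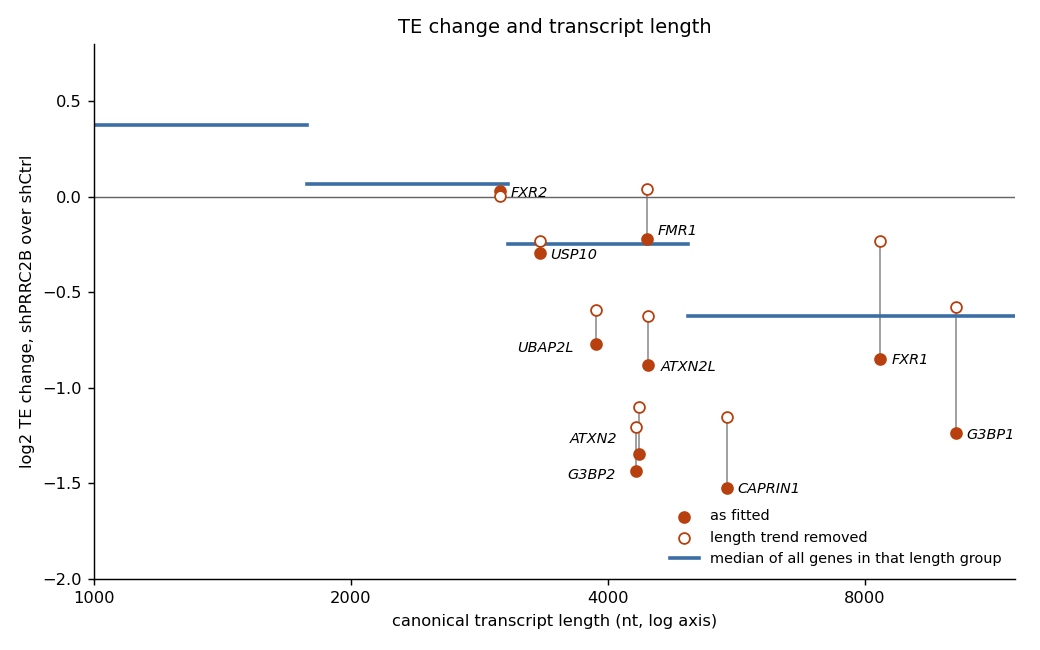
Log2 TE change against canonical transcript length (log axis) for each mRNA, as fitted (filled) and with the length trend removed (open); blue lines give the median of all genes in each of 4 equal length groups, the outer groups being drawn to the ends of the axis. FXR1 and G3BP1, the longest transcripts, move most when the trend is removed.

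Apart from the count ratios of related genes above, levels of different genes were compared only per length. In shCtrl total RNA, per kb of canonical transcript, UBAP2L was highest at 53.3 CPM per kb, followed by CAPRIN1 (47.2) and ATXN2L (46.7), whose ranges over replicates overlapped. G3BP2 (33.2), USP10 (31.8), FMR1 (24.2), FXR2 (20.6), G3BP1 (15.8), ATXN2 (13.7) and FXR1 (11.5) followed, each clear of its neighbours' ranges. In shPRRC2B total RNA the order ran from CAPRIN1 (63.2 CPM per kb) and UBAP2L (62.0), whose ranges overlapped, to ATXN2 (14.6) and FXR1 (12.9). FXR1 and G3BP1, with the longest untranslated ends, stood higher by coding length: per kb of coding sequence, CAPRIN1 (122), G3BP1 (115) and G3BP2 (99.2) led in shCtrl total RNA and ATXN2 (17.2) was lowest. Short forms of these transcripts would change both scales.

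On polysomes USP10 led per kb of transcript in both lines, at 25.8 ± 1.66 CPM per kb (SD, n = 3) in shCtrl and 31.2 ± 2.27 in shPRRC2B cells. CAPRIN1 came next, at 20.2 ± 5.65 and 9.38 ± 3.14 CPM per kb, and ATXN2 was last, at 3.99 ± 0.996 and 1.67 ± 0.136. Per kb of coding sequence CAPRIN1 (52.3 CPM per kb) and FXR1 (52.2), whose ranges overlapped, led in shCtrl polysomes and USP10 (35.9) came after G3BP1 (36.4), while USP10 (43.3) led in shPRRC2B polysomes with a range that overlapped that of FXR1 (32.6). Per kb of transcript, in shCtrl polysomes CAPRIN1, UBAP2L, ATXN2L and FXR1 overlapped from neighbour to neighbour, as did FMR1, FXR2 and G3BP1. In shPRRC2B polysomes the 8 genes from CAPRIN1 to G3BP1 overlapped from neighbour to neighbour, so their order there is not resolved.

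Other genes of these pathways were taken as 4 lists with 29 genes, all of them tested. The lists were chosen with earlier results of these data known. In TE 17 of the 29 fell, against 16.4% of all genes. A rise, called for 10.7% of all genes, was found for 0 by edgeR or at an unadjusted p under 0.05. Their median was -0.79, and that of all genes -0.03. Among 17 other stress granule RNA-binding proteins 11 fell, with PRRC2C, a paralog of PRRC2B, the lowest at -2.89 (SE 0.25, adjusted p = 6.08e-06, edgeR). Of 4 ataxin-2 and poly(A) partners 3 fell: the helicase DDX6 by 2.16 on the log2 scale, poly(A)-binding protein PABPC1 by 1.60 and PABPC4 by 0.59. Of 6 FMRP partners 2 fell, NUFIP2 (-1.38) and CYFIP1 (-0.96). Of the paralogs CAPRIN2 and UBAP2, UBAP2 fell (-0.87) and CAPRIN2 stood at 0.21 (SE 0.26). In polysome RNA 15 of the 29 fell, against 21.4% of all genes. In total RNA 3 rose (10.3%) and 1 fell (3.45%), both shares under those of all genes, 14.9% and 14.1%.

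Profiles over the 12 libraries were compared by Pearson r of log2(CPM + 1), as a description, since all genes share the libraries and the gap between fractions dominates. Among the 10, r ran from 0.215 (FXR1 and USP10) to 0.998 (G3BP1 and G3BP2). Among genes whose mean reached 10 CPM, those most like FXR1 were LGMN (0.920), PML (0.916) and IPO5 (0.911). Those most like G3BP1 were MED14, ADAM10 and CAND1 (each 0.998), and those most like ATXN2 were ATP9A (0.998), CUX1 (0.997) and CDH2 (0.996).

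All but USP10 overlap another annotated gene on the genome: FXR2 lies opposite MPDU1 and SHBG, G3BP1 opposite ATOX1, G3BP2 opposite USO1, UBAP2L opposite C1orf43, and ATXN2 opposite SH2B3 and ATXN2-AS. Pairs assigned to more than 1 gene were not counted, and no strand option was stated. A pair that matched exons of both genes alike was therefore left out, whichever gene it came from. A partner's pair that fell only in exons of the other gene cannot be told apart from that gene's own. How far this touched the counts was not tested.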

How the data were processed

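Total and polysome RNA of HEK293T cells was sequenced in 12 libraries (4 groups of 3). The values are raw counts of read pairs by gene name, as deposited by the authors, not normalized. Reads were trimmed with Trimmomatic 0.36, aligned to GRCh38 with HISAT2 2.1.0 and counted with featureCounts of Subread 2.0.1, per the submitters' processing notes. The table holds 0 columns that belong to no sample and 0 pairs of identical libraries. Groups and replicate numbers came from the labels.

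In R 4.3.3, edgeR 4.0.16 kept 18166 genes with filterByExpr (minimum count 10). Library sizes were scaled by TMM, and glmQLFTest gave 5 contrasts from 1 fit of all 12 libraries without a block, with two-sided p-values adjusted over all genes tested (Benjamini-Hochberg). Calls needed an adjusted p below 0.05 and a log2 change beyond 0.5 in size. Ratios of related genes, with 0.5 added to each count, were compared by exact permutation. Positions and lengths came from the canonical transcripts of GENCODE 44 on GRCh38. The length trend was a lowess curve (span 0.3) of each library's log2 level on log length, used as an offset that kept the overall level of the library; genes without a length were unchanged. The alternatives were DESeq2 1.42.0, its size factors, library totals, TMM within each fraction, every gene with at least 1 count, limma 3.58.1 on log2(CPM + 1), a replicate block, the length trend with and without that block, no minimum log2 change, each library left out and, for the ratios, 1 added to each count.

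All 10 genes were named, with PRRC2B, the called genes of largest and smallest TE change in each pathway list, and the 3 genes most like FXR1, G3BP1 and ATXN2; PABPC1, CAPRIN2 and COL1A1 were named after their values were seen. One gene that this rule would name is not reported here. The genes and lists were chosen with earlier results of these data known. The scripts were tested on simulated data. Intervals for shares of counts were not needed, since the errors given are SDs between replicates or SEs. The SE of the model was the log2 change, without its sign, over the square root of the F statistic. For a pair of related genes, the SE came from the variances of their log2 ratio within the 4 groups.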

Additional observations from a re-analysis of the deposited data

Results flagged for a closer look

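The contrast of polysome with total RNA differed between the lines, by the interaction term of edgeR's quasi-likelihood fit, for 7 of the 10 genes. The difference, in log2 of shPRRC2B over shCtrl, was -0.85 for FXR1, -1.24 for G3BP1, -1.44 for G3BP2, -1.52 for CAPRIN1, -0.77 for UBAP2L, -1.35 for ATXN2 and -0.88 for ATXN2L. No group has the 4 samples that a check for a library far from its group would need.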

How the results depend on the processing

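With 3 libraries per group, several calls near the thresholds were lost or gained when 1 library was left out. Of 1050 alternative values for single genes, 981 kept their direction and side of the threshold, 45 lost the call, 5 gained one and 19 changed sign. The count of the 10 that fell in TE, 7 in the analysis reported, was 4 with the length trend removed, against 13% of all genes. It was also 4 with the length trend removed and a replicate block (12% of all genes). It was 6 with the replicate block alone (15.5%), which ended only the ATXN2L call (-0.86, adjusted p = 0.0543, edgeR). ATXN2L was also lost with library totals, TMM within each fraction and limma. The count that fell in polysome RNA was 4 with the length trend removed in either way, against 19.7% of all genes, or 19.1% with the replicate block. The count that rose in total RNA was 0 with library totals, against 2143 of all 18166 genes, and ranged from 1 to 3 with each library left out. The count that rose in polysome RNA ranged from 0 to 1 with each library left out, with FXR2 the 1 gene. In the fit that called FXR2, without shCtrl polysome replicate 1, 3353 of 18992 genes rose. With the length trend removed in either way, 1 gene (FXR1) was higher in polysome than in total RNA in each line, at 1.61 in shCtrl cells with either fit, and at 1.38 and, with the replicate block, 1.36 in shPRRC2B cells. Of all 18166 genes, 5175 were called higher in shCtrl and 5720 in shPRRC2B cells. With the replicate block these were 5032 and 5622. The TE change of FXR2 was -0.023 with every gene counted and ranged from -0.18 to 0.31 with each library left out. FMR1 was at 0.040 in TE and at 0.15 in polysome RNA with the length trend removed, in both fits. FXR1 in shCtrl polysome over total RNA was -0.98 with library totals and with TMM within each fraction, -0.11 with every gene counted, and -0.076 to 0.093 with each library left out. G3BP1 there, -1.66 as reported, was 0.11 with the length trend removed in both fits. Libraries with the same replicate number showed no shared deviation from their group means. Their 18 correlations lay between -0.11 and 0.10, none over 0.1, and the highest correlations joined different numbers. With 3 libraries per group, these deviations cannot show whether same-numbered libraries came from the same culture. The cause of these changes was not tested.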
